A study of Drosophila melanogaster with 84 samples.

Results

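The glutathione S-transferases of Drosophila melanogaster were examined in RNA of the abdominal fat body. The set was chosen by name: every gene of the day-5 table whose symbol begins with GstD, GstE, GstO, GstS, GstT or GstZ, together with Mgstl. It holds 36 genes of 23932 features, of which 17869 are FlyBase genes. By class there are 11 Delta, 14 Epsilon, 3 Omega, 1 Sigma, 4 Theta and 2 Zeta genes, and Mgstl is the microsomal, membrane-bound enzyme. The gene sepia (se), an Omega-class enzyme of eye pigment synthesis, does not carry the prefix and lies outside the set.

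Glutathione S-transferases join the tripeptide glutathione to electrophilic compounds, which include insecticides, plant toxins and the aldehydes left by lipid peroxidation, and so make them soluble and less reactive. The Delta and Epsilon classes are expanded in insects and are best known for detoxification and insecticide resistance. The Zeta class carries a step of tyrosine breakdown, the isomerization of maleylacetoacetate, and the fat body, the insect counterpart of liver and adipose tissue, is a main site of both processes.

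Per the labels, mated females about 3 days old were entrained for 5 days to 12 hours of light and 12 hours of dark at 18°C or 25°C. The study's methods add that flies were first entrained for 3 days and that those of the 18°C group were moved when about 7 days old. Fat tissue attached to the abdominal epidermis was pooled from 10 flies for each library after the gut, ovaries and Malpighian tubules had been removed. The groups compared were wild type (w1118, the Iso31 stock) at 18°C on food with 15% sucrose and yeast (15% SY, 24 libraries), w1118 on the diluted, dietary restriction food of 5% SY at 25°C (24 libraries), the Clk-Jrk mutant on 15% SY at 25°C (12 libraries), and w1118 on 15% SY at 25°C (24 libraries). Clk-Jrk carries a dominant mutant allele of the clock gene Clock and was backcrossed 7 times to w1118, with which it shares its background. Wild type was sampled at 12 zeitgeber times (ZT, hours after lights on) from ZT2 to ZT24, and Clk-Jrk at 6 times from ZT2 to ZT22, with 2 replicates at each time. Nothing in the labels says how the 2 replicates were separated, so p-values measure the spread between these pools. Flies of inverse light schedules were housed in separate incubators, so that light phase and incubator cannot be told apart. The 3 comparisons below (18°C against 25°C, 5% SY against 15% SY, Clk-Jrk against wild type) all use the wild-type libraries on 15% SY at 25°C, and the genotype comparison uses the 12 of them at the 6 shared times.

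Values are TPM, the number of transcripts of a gene per 1000000, which is scaled for transcript length. Read counts cannot be recovered from them, and library depth is therefore unknown. The genotype label was checked on tim, a target of Clock, which had 1.57 to 5.70 TPM in Clk-Jrk (median 3.47), against 9.70 to 126 TPM in wild type (median 73.5). Clk itself had 1.56 to 6.88 TPM in Clk-Jrk, against 2.33 to 8.31 TPM in wild type over all 24 libraries, and its level is no check of a point mutation. Of 8 fat body markers 7 had medians above 1 TPM in every group, whereas the larval gene Fbp1 was at or near 0. Tissue beside the fat body was present. The oenocyte markers, led by Cyp4g1, summed to medians of 27640 to 32231 TPM over the 4 groups, and skeletal muscle markers to medians of 1547 TPM in Clk-Jrk and 2479 to 3300 TPM in the wild-type groups. The sum of 7 midgut markers passed 500 TPM in 4 libraries at 18°C, 7 on 5% SY, 0 of Clk-Jrk and 6 of wild type on 15% SY at 25°C, while deltaTry had a median of 0 in all groups. The medians of this sum had another order, with 150 TPM at 18°C, 50.6 TPM on 5% SY, 10.1 TPM in Clk-Jrk and 13.1 TPM in wild type on 15% SY at 25°C. The 8 ovary markers summed to medians of 214 TPM at 18°C, 282 TPM on 5% SY, 461 TPM in Clk-Jrk and 1423 TPM in wild type on 15% SY at 25°C. The 2 libraries least like their group were both of replicate 1 of wild type on 15% SY at 25°C, at ZT4 and ZT2, with median correlations of 0.879 and 0.911 to the rest of the group. The lowest libraries of the other groups had 0.912 on 5% SY, 0.917 at 18°C and 0.942 in Clk-Jrk. Only the ZT4 library was therefore clearly below the rest. The setting below that leaves out these 2 libraries leaves out none of another group. In bulk RNA, fewer cells of a type and less RNA per cell cannot be told apart.

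Most members lie in clusters of related genes (positions on BDGP6 from a later Ensembl release than the one used for counting). The Delta cluster of 11 genes spans 20849 bp on chromosome 3R (12364776 to 12385624). An Epsilon cluster of 10 genes, GstE1 to GstE10, spans 13198 bp on 2R (18396638 to 18409835), and GstE11 to GstE14 lie elsewhere on 2R. The 3 Omega genes lie within 5982 bp on 3L (8518885 to 8524866). Clk is also on 3L but apart from them, with 743281 bp between it and GstO3, the nearest Omega gene. GstZ1 and GstZ2 are neighbours on 3R (9455517 to 9460652), and GstT1 and GstT2 on 2R (9605988 to 9608350). Exons of 8 members overlap an exon of another gene on the opposite strand. Among them GstE1 and GstE10 overlap each other, GstE9 overlaps imd, and GstO2 overlaps se. The counting took no account of strand, so reads from such overlaps cannot be assigned, and reads shared by near-identical copies within a cluster were divided by estimation. Levels of these genes are uncertain to that extent.

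The family contributed a small share of the transcriptome in all groups, lowest in the 2 wild-type groups at 25°C, larger at 18°C and largest in Clk-Jrk. All 36 genes summed to 0.332% of TPM at 18°C, 0.305% on 5% SY, 0.364% in Clk-Jrk and 0.301% in wild type on 15% SY at 25°C. These are means over libraries, of 6 time points in Clk-Jrk and 12 in wild type. Of the members, 24 had a median above 5 TPM in every group, and these entered the tests. The other 12 stayed below 5 TPM in every group. Most of these were Delta genes (GstD2, GstD4, GstD5, GstD6, GstD7, GstD8, GstD10 and GstD11), joined by GstE2, GstE4, GstE5 and GstE14. GstD6, GstD8 and GstE4 had a median of 0 in every group. GstE14, known as Noppera-bo and needed for the synthesis of the moulting hormone ecdysone, had medians of 1.08 to 2.02 TPM.

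Expression was concentrated in a few enzymes, and the order of classes differed from the order of gene number. GstE12 and Mgstl had the highest medians in wild type on 15% SY at 25°C, at 756 and 530 TPM. GstE9 followed at 362 TPM, GstD1, the Delta enzyme known for metabolizing DDT, at 311 TPM, and GstT4 of the Theta class at 242 TPM. GstO2 and GstO3 stood near 100 TPM, with medians of 105 and 99.0 TPM. GstS1, the sole Sigma enzyme, known from flight muscle, had a median of 52.4 TPM in the same group and 48.8 to 57.5 TPM in the other 3. Of the 3 Delta genes above the filter, GstD9 and GstD3 had medians of only 10.9 and 11.0 TPM, so GstD1 made up nearly all of the Delta sum.

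**Figure D1:**
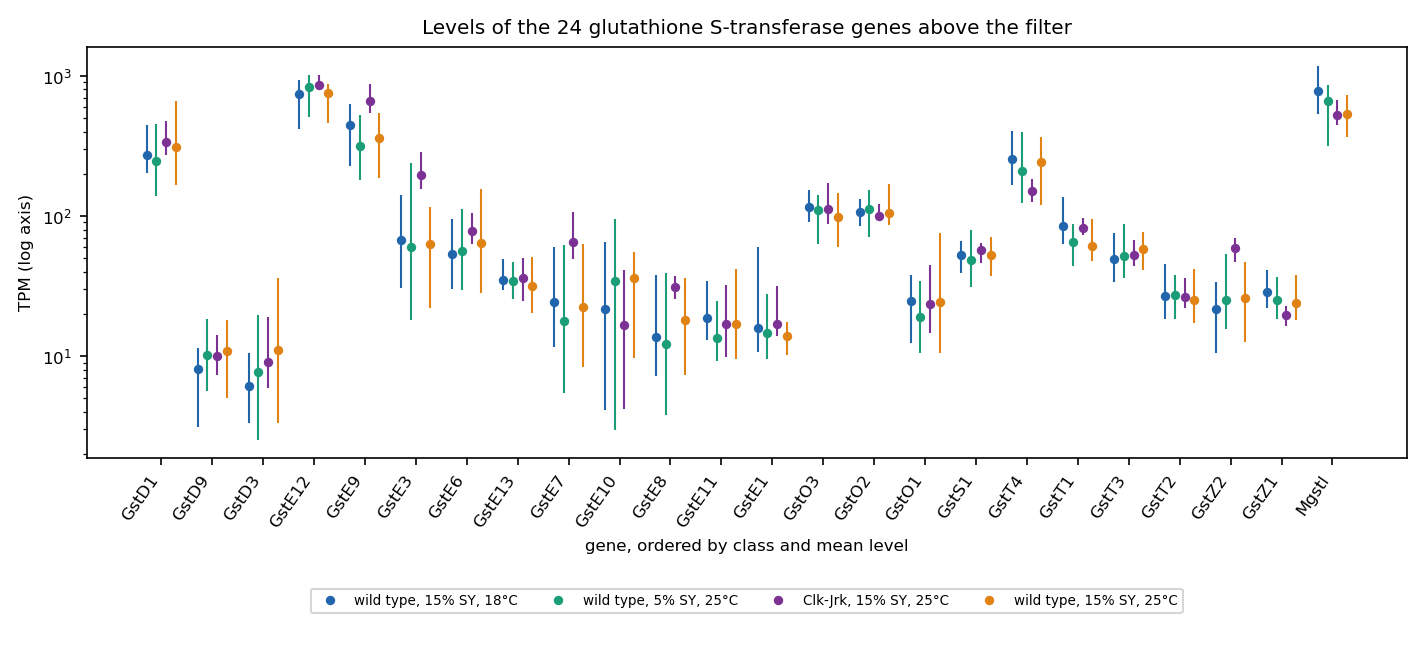
Levels of the 24 members above the filter, with genes along the x axis by class and mean level, and TPM on a log y axis. Points are medians and lines run from the lowest to the highest library of each group. GstE12 and Mgstl lie highest in wild type on 15% SY at 25°C (756 and 530 TPM), and the Clk-Jrk ranges of GstE3, GstE9 and GstZ2 lie above those of wild type on 15% SY at 25°C.

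At 18°C, against 25°C, the members moved in both directions and by modest amounts. Mgstl and GstT1 had the largest rises and GstD3 and GstD9 the largest falls. In the limma fit on log2(TPM + 1), 6 of the 24 members were higher, 5 were lower and 13 did not pass an adjusted p of 0.05. Over all 7157 genes tested, 23.2% were higher and 30.5% lower, 53.6% in either direction, so that 11 calls among 24 members is a share near the background. Their median difference was 0.04 on the log2 scale, and that of all genes was -0.06. All 24 members overlapped between the temperatures, as did nearly all genes tested (0.224% lay wholly higher and 0.014% wholly lower).

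Mgstl, the microsomal enzyme, had 531 to 1181 TPM at 18°C (median 779), against 363 to 731 TPM at 25°C (median 530). The cool libraries were higher at 12 of 12 time points, although the ranges overlapped. The difference was 0.56 on the log2(TPM + 1) scale (SE 0.07, limma adjusted p = 5.1e-09).

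GstT1 had 63.0 to 137 TPM at 18°C (median 85.2), against 47.5 to 95.0 TPM at 25°C (median 61.3). It was higher at 11 of 12 time points, by 0.52 on the log2 scale (SE 0.07, limma adjusted p = 2.9e-08). Its neighbour GstT2 differed by 0.11 (adjusted p = 0.29) and did not pass.

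The remaining rises were smaller. GstE1 was higher by 0.42 (limma adjusted p = 0.0052), and its spread was wide at 18°C, with 10.8 to 59.8 TPM (median 15.8) at 18°C and 10.2 to 17.6 TPM (median 13.9) at 25°C. GstE9, a strongly expressed Epsilon gene, had 226 to 626 TPM (median 449) at 18°C, against 187 to 541 TPM (median 362) at 25°C, and was higher by 0.29 (limma adjusted p = 0.032). GstZ1 and GstO3 were higher by 0.22 and 0.21 (limma adjusted p = 0.0029 and 0.012).

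The Delta class had the clearest falls. GstD3 had 3.32 to 10.5 TPM at 18°C (median 6.17), against 3.35 to 36.0 TPM at 25°C (median 11.0). Its means were lower at all 12 time points, and the fall was 0.73 on the log2 scale (difference -0.73, SE 0.15, limma adjusted p = 9.4e-05). GstD9 had a median of 8.05 TPM at 18°C and 10.9 TPM at 25°C, with a difference of -0.55 (SE 0.12, limma adjusted p = 1.3e-04). GstD1, the main Delta gene, had medians of 273 TPM at 18°C and 311 TPM at 25°C and did not pass (difference -0.13, adjusted p = 0.23).

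The other falls were in GstE10, GstZ2 and GstT3. GstE10, a gene with a wide spread in all groups, had 4.15 to 64.9 TPM (median 21.7) at 18°C, against 9.71 to 55.4 TPM (median 35.8) at 25°C, a difference of -0.52 that only just passed (limma adjusted p = 0.050). GstZ2 had 10.5 to 33.7 TPM (median 21.8) at 18°C, against 12.5 to 46.8 TPM (median 26.0) at 25°C, a difference of -0.24 (adjusted p = 0.013). The Zeta genes thus differed in direction, with GstZ1 higher and GstZ2 lower. GstT3 differed by -0.22 (limma adjusted p = 0.0025).

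The calls of Mgstl, GstT1 and GstD3, 3 of the 11, held in each of 14 alternative settings. GstE10 and GstE9 were lost without the 2 libraries of wild type on 15% SY at 25°C that stood apart (limma adjusted p = 0.085 and 0.088), and GstE1, GstE9, GstE10 and GstZ2 without the libraries high in midgut markers. GstE9 and GstO3 did not pass after scaling (limma adjusted p = 0.077 and 0.059). Midgut markers summed to a median of 150 TPM at 18°C and 13.1 TPM at 25°C. Hemocyte markers summed to a median of 104 TPM at 18°C and 72.9 TPM at 25°C, and muscle markers to 3300 TPM at 18°C and 2479 TPM at 25°C. Beyond leaving out the libraries high in midgut markers, the part of these cells and of ovary tissue in the temperature differences was not tested.

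**Figure D2:**
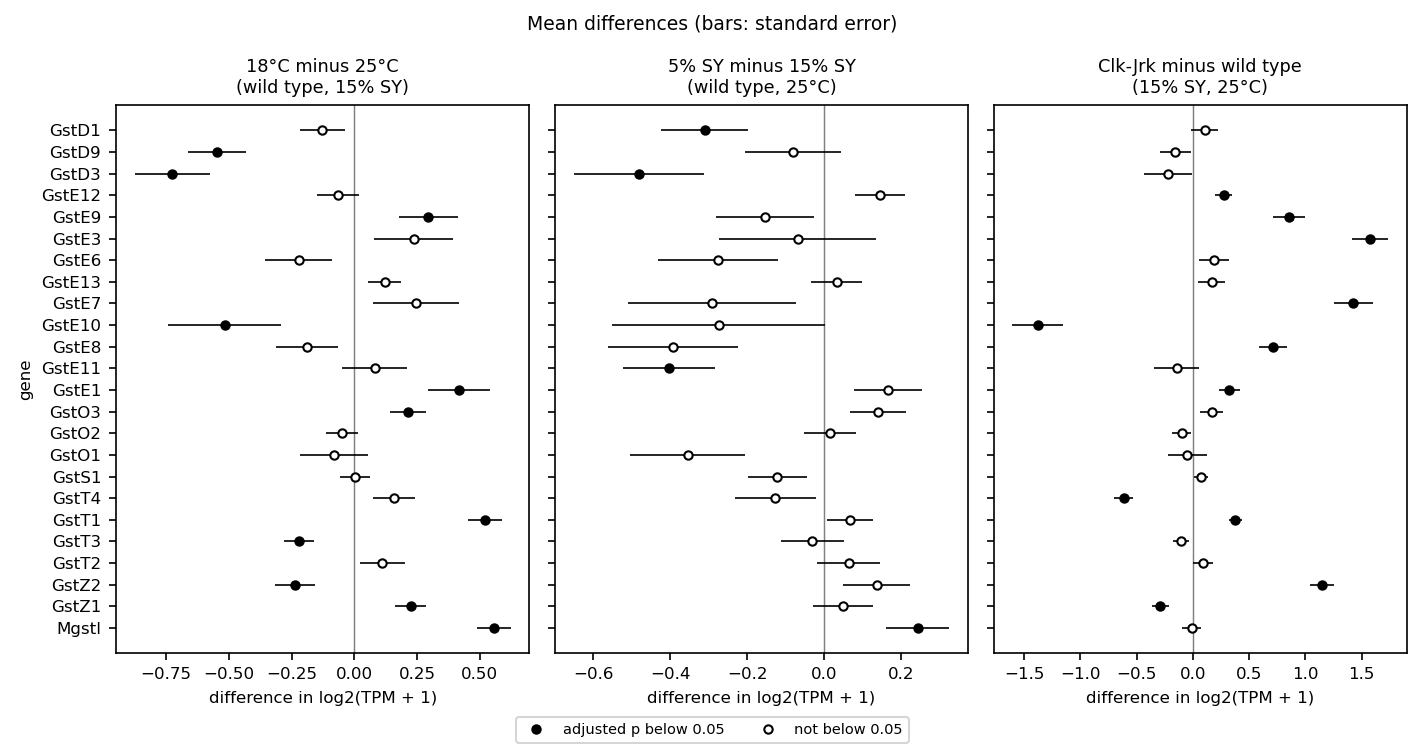
Mean difference in log2(TPM + 1) of the 24 members (x axis) in the 3 comparisons, with genes down the y axis. Points are limma estimates with standard errors, filled where the adjusted p was below 0.05, and the 3 x axes differ in range. At 18°C 6 members were higher and 5 lower, on 5% SY 1 was higher and 3 lower, and in Clk-Jrk 8 were higher and 3 lower.

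On 5% SY, against 15% SY, few members differed, and the calls made were not stable. Mgstl was the only member that was higher, and GstD3, GstE11 and GstD1 were lower, with 20 not called. Of 7000 genes tested, 6.24% were higher and 25.6% lower. The median difference was -0.08 over the members and -0.11 over all genes.

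Mgstl had 313 to 856 TPM on 5% SY (median 656), against 363 to 731 TPM on 15% SY (median 530). It was higher at 11 of 12 time points, by 0.24 on the log2 scale (SE 0.08, limma adjusted p = 0.023). GstD1 had 140 to 453 TPM on 5% SY (median 247), against 166 to 657 TPM on 15% SY (median 311), a difference of -0.31 (SE 0.11, limma adjusted p = 0.034). GstE11 had 9.27 to 24.6 TPM on 5% SY (median 13.5), against 9.49 to 42.2 TPM on 15% SY (median 17.1), and differed by -0.40 (SE 0.12, limma adjusted p = 0.014).

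GstD3 had 2.53 to 19.7 TPM on 5% SY (median 7.70), against 3.35 to 36.0 TPM on 15% SY (median 11.0). It differed by -0.48 (SE 0.17, limma adjusted p = 0.028) and was lower at all 12 time points. All 24 members overlapped between the diets, as did all 7000 genes tested. None of the 4 calls held without the 2 libraries that stood apart, which belong to the 15% SY group, where adjusted p lay between 0.054 for GstE11 and 0.12 for GstD1. Scaling each library by its median ratio moved the median of all genes by 0.11 and the count of members to 7 higher and 2 lower, with 14.3% and 21.2% of all genes higher and lower.

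In Clk-Jrk, against wild type, the members changed by up to 1.58 on the log2 scale, and most of those that rose were of the Epsilon class. GstE3, GstE7, GstE8, GstE9, GstE1 and GstE12 were higher, together with GstZ2 and GstT1, while GstE10, GstT4 and GstZ1 were lower. In all, 8 of 24 members were higher, 3 were lower and 13 did not pass. Of 7093 genes tested, 10.2% were higher and 36.4% lower, 46.6% in either direction, and the median difference was 0.10 over the members and -0.22 over all genes. Relative to the median of all genes, the rises were therefore larger than the values given below: scaling by the median ratio moved that median by 0.24, raised the count of members to 14 higher and 2 lower, and moved the calls of all genes to 24.5% higher and 17.4% lower. None of the 11 called members changed sign under it, and falls were smaller after scaling, at -0.36 for GstT4 and -0.04 for GstZ1.

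GstE3 had 156 to 287 TPM in Clk-Jrk (median 196), against 30.1 to 115 TPM in wild type (median 68.8). Every Clk-Jrk library lay above every wild-type library. The difference was 1.58 on the log2 scale (SE 0.16, limma adjusted p = 2.5e-07).

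GstE7 had 49.5 to 106 TPM in Clk-Jrk (median 65.3), against 8.93 to 63.3 TPM in wild type (median 24.2). The groups overlapped through 1 high wild-type library at ZT6, and Clk-Jrk was higher at 6 of 6 time points. The difference was 1.43 (SE 0.17, limma adjusted p = 2.4e-06).

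GstE9 was the most abundant of the genes that rose strongly. It had 544 to 876 TPM in Clk-Jrk (median 658), against 187 to 541 TPM in wild type (median 384), and the groups did not overlap. The difference was 0.85 (SE 0.15, limma adjusted p = 1.3e-04). It was 0.53 (limma adjusted p = 0.035) without the 5 wild-type libraries high in midgut markers, a reduction of more than 1.5 times, and reads of imd, which overlaps GstE9, cannot be separated.

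GstE8 had 25.6 to 37.2 TPM in Clk-Jrk (median 31.1), against 7.29 to 35.9 TPM in wild type (median 19.1). It was higher at 6 of 6 time points, by 0.71 (SE 0.13, limma adjusted p = 2.1e-04). GstE12, the most abundant member, had 796 to 1006 TPM in Clk-Jrk (median 857), against 538 to 879 TPM in wild type (median 752), a difference of 0.27 (limma adjusted p = 0.0062), and this was 0.14 (limma adjusted p = 0.24) without the libraries high in midgut markers.

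Along the Epsilon cluster on 2R the differences were unequal between neighbours. In chromosomal order, GstE10 differed by -1.38, GstE1 by 0.33, GstE3 by 1.58, GstE6 by 0.19, GstE7 by 1.43, GstE8 by 0.71 and GstE9 by 0.85. GstE2, GstE4 and GstE5, which lie among them, were under the filter, with Clk-Jrk medians of 1.96, 0 and 2.76 TPM and wild-type medians of 1.68, 0 and 2.00 TPM over all 24 libraries. GstE6, between GstE5 and GstE7, had 63.5 to 106 TPM in Clk-Jrk (median 78.1), against 47.9 to 124 TPM in wild type (median 65.3), and did not pass (limma adjusted p = 0.24). It did so only after scaling (difference 0.44, limma adjusted p = 0.0046).

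GstE10 had 4.16 to 41.4 TPM in Clk-Jrk (median 16.7), against 25.1 to 53.3 TPM in wild type (median 40.9). It was lower at all 6 time points with some overlap, by a difference of -1.38 (SE 0.23, limma adjusted p = 9.3e-05). GstE1 overlaps it on the other strand and rose, at 13.9 to 31.9 TPM in Clk-Jrk (median 16.8), against 10.4 to 17.6 TPM in wild type (median 14.9), with a limma adjusted p of 0.0098.

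Of the pair of Zeta genes GstZ2 rose, and GstZ1 was called lower before scaling only. GstZ2 had 47.2 to 69.9 TPM in Clk-Jrk (median 58.8), against 13.6 to 46.7 TPM in wild type (median 26.8), without overlap. The difference was 1.15 (SE 0.10, limma adjusted p = 4.1e-08).

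GstZ1, its neighbour, had 16.3 to 22.9 TPM in Clk-Jrk (median 19.7), against 18.1 to 30.3 TPM in wild type (median 23.8). It differed by -0.29 (SE 0.08, limma adjusted p = 0.0043), close to the median of all genes, and it did not pass after scaling (limma adjusted p = 0.73). GstE3, GstE9 and GstZ2 were the 3 members with no overlap between the groups, all higher in Clk-Jrk. Over all genes tested, 1.45% were higher in this way and 0.691% lower.

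Of the Theta genes, GstT4 was lower and GstT1 higher. GstT4 had 125 to 185 TPM in Clk-Jrk (median 151), against 120 to 301 TPM in wild type (median 255). The lowest wild-type library was 1 of the 2 that stood apart, and the others were above nearly all of Clk-Jrk. The difference was -0.61 (SE 0.09, limma adjusted p = 1.7e-05). GstT1 had 72.8 to 97.1 TPM in Clk-Jrk (median 82.7), against 50.1 to 76.5 TPM in wild type (median 63.9), and differed by 0.38 (SE 0.06, limma adjusted p = 8.0e-05).

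The 3 Delta genes, the 3 Omega genes, GstS1 and Mgstl did not pass in Clk-Jrk before scaling. After scaling GstD1 (0.36), GstS1 (0.33) and GstO3 (0.42) were higher (limma adjusted p = 0.0040, 0.0031 and 0.027). GstD3, GstD9, GstO1, GstO2 and Mgstl did not pass then either. GstD1 had 272 to 474 TPM in Clk-Jrk (median 335), against 193 to 606 TPM in wild type (median 317), and Mgstl had medians of 523 TPM in Clk-Jrk and 530 TPM in wild type. The calls of GstE3, GstE7, GstE9, GstZ2, GstT1 and GstE10, 6 of the 11, held in each of 15 alternative settings, and GstE8 and GstT4 failed in 1 of them, the light phase alone. The calls of GstE1, GstE12 and GstZ1 held in 11, 10 and 10 of the 15, and all 3 were lost without the libraries high in midgut markers. Ovary markers summed to a median of 461 TPM in Clk-Jrk and 1675 TPM in the 12 wild-type libraries, and muscle markers to 1547 TPM in Clk-Jrk and 2471 TPM in wild type. Malpighian tubule markers summed to a median of 56.6 TPM in Clk-Jrk (6.69 to 114) and 168 TPM in wild type (69.0 to 231), and hemocyte markers to 92.7 TPM in Clk-Jrk and 67.3 TPM in wild type. Their part in the differences was not tested.

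**Figure D3:**
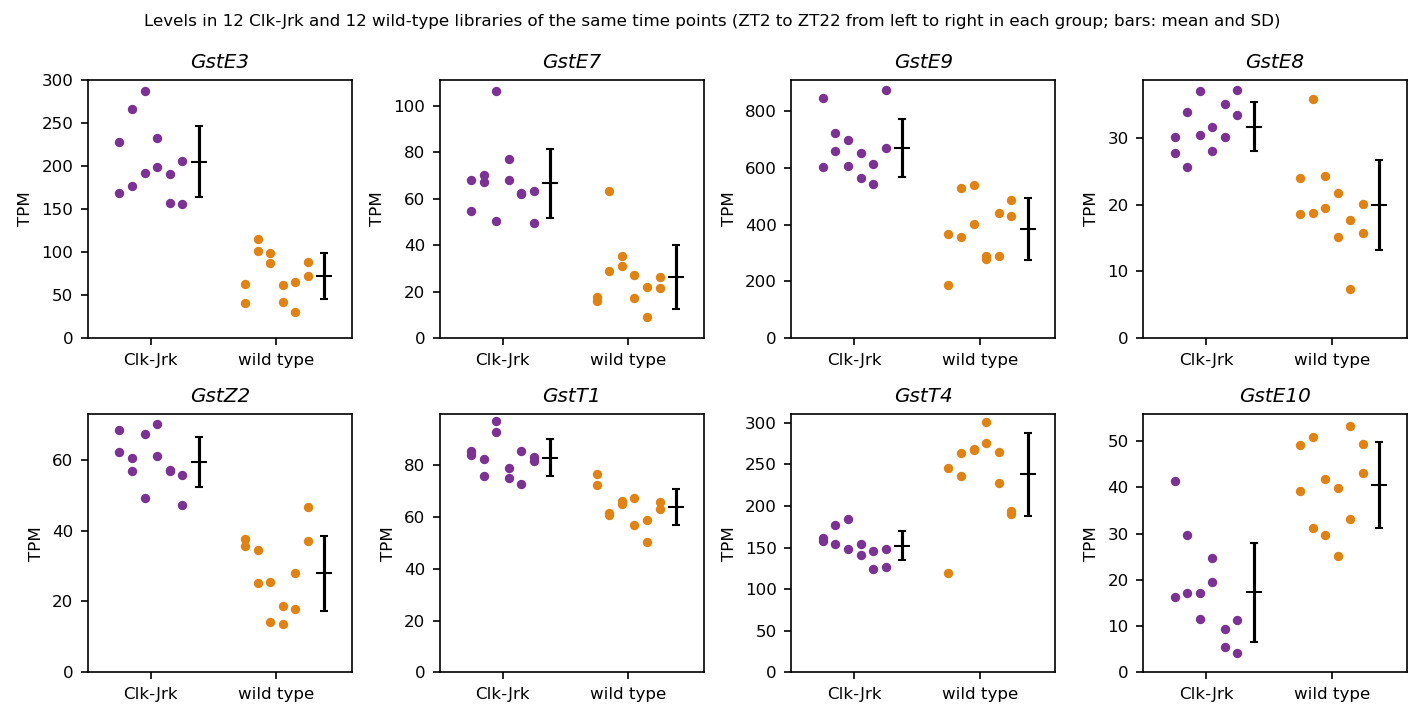
Levels of 8 members that differed by genotype, in TPM on y axes that start at 0, with each point 1 library, 12 of Clk-Jrk and 12 of wild type from the same 6 time points. Points run by time within each group, and the bar gives mean and SD. GstE3, GstE9 and GstZ2 do not overlap between groups, and GstT4 and GstE10 are lower in Clk-Jrk.

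The 11 called members in Clk-Jrk can be set beside the other comparisons, which share the wild-type libraries on 15% SY at 25°C. GstT1 was higher in Clk-Jrk and at 18°C (0.38 and 0.52), and differed by 0.07 on 5% SY without passing. GstE9 and GstE1 were likewise higher in both (0.85 and 0.33 in Clk-Jrk, 0.29 and 0.42 at 18°C). GstZ2 was higher in Clk-Jrk and lower at 18°C. GstZ1 was higher at 18°C and lower in Clk-Jrk, there before scaling only. GstE3 and GstE7 differed by 0.24 and 0.25 at 18°C and by -0.07 and -0.29 on 5% SY, none of which passed.

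The tyrosine breakdown pathway, in which the Zeta enzymes act, was higher in Clk-Jrk in all 5 of its other listed genes, with a median difference of 0.88 for the list and -0.22 for all genes. Hpd, the dioxygenase that makes homogentisate, had 264 to 426 TPM in Clk-Jrk (median 320), against 50.6 to 276 TPM in wild type (median 156), and differed by 1.20 (limma adjusted p = 9.0e-06). hgo, the next enzyme, which opens the homogentisate ring and supplies the Zeta substrate, had 89.2 to 153 TPM in Clk-Jrk (median 108), against 29.1 to 84.3 TPM in wild type (median 52.4). It did not overlap between groups and differed by 1.06 (limma adjusted p = 3.5e-06). CG1461, the tyrosine aminotransferase, Hn, the phenylalanine hydroxylase, and Faa, which completes the pathway, differed by 0.88, 0.75 and 0.44, and all 5 were also higher after scaling. At 18°C the same pathway was split, with Faa (0.57) and CG1461 (0.52) higher, Hpd (-0.43) and hgo (-0.42) lower and Hn not called. On 5% SY hgo (0.31) and Faa (0.20) were higher.

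Genes of glutathione supply and redox changed in both directions in Clk-Jrk. Of 11 tested, 5 were lower, 2 were higher and 4 did not pass, with a median difference of -0.34. Of all genes, 36.4% were lower and 10.2% higher, with a median of -0.22. After scaling by the median ratio 1 of the 11 was lower, 3 were higher and 7 did not pass, with a median of -0.09. Of all genes, 17.4% were then lower and 24.5% higher. Gclm, the modifier subunit of the enzyme that limits glutathione synthesis, had 67.1 to 161 TPM in Clk-Jrk (median 116), against 142 to 266 TPM in wild type (median 188), and differed by -0.77 (limma adjusted p = 1.0e-04), and by -0.52 after scaling (limma adjusted p = 0.0061). Trxr-1, which keeps thioredoxin and glutathione reduced in flies, was lower (-0.52), as were the exporter MRP (-0.34) and the synthetases Gss1 and Gss2 (-0.43 each), but none of these 4 passed after scaling. The last pair had identical values in 84 of 84 libraries and cannot be told apart, so the counts above hold 1 measurement 2 times. PHGPx, a peroxidase of lipid hydroperoxides, and Grx1, a glutaredoxin, were higher (0.54 and 0.23), also after scaling. At 18°C Gclm (0.42) and the catalytic subunit Gclc (0.31) were higher, and Ggt-1 (-0.72), Glo1 (-0.45) and Trx-2 (-0.25) were lower. On 5% SY Ggt-1 (-0.74) and Trxr-1 (-0.25) were lower, the second of them not after scaling (limma adjusted p = 0.31).

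Of 5 regulators of detoxification genes, Keap1, which holds the activator Cnc in check, was higher in Clk-Jrk (0.25), and foxo (-0.90), cnc (-0.42) and maf-S (-0.20), the small Maf partner of Cnc, were lower. After scaling Keap1 (0.48) and foxo (-0.66) still passed, whereas cnc (-0.17) and maf-S, whose sign changed (0.05), did not. At 18°C foxo was higher (0.24) and maf-S (-0.38) and the nuclear receptor Hr96 (-0.31) were lower. On 5% SY maf-S was higher (0.21) and Hr96 lower (-0.35). Of the genes with a transferase fold outside the set, Clic was lower in Clk-Jrk (-0.47) and eEF1gamma lower at 18°C (-0.25), and se, with its low level, was not tested.

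Time of day was examined by regressing TPM on a 24 hour cosine and sine in each group, with a p below 0.1 as the threshold for a rhythm. At 18°C 13 of 24 members passed, and 30.5% of all genes did. On 5% SY 7 of 24 passed, and 10.1% of all genes did. In Clk-Jrk 3 of 24 passed, against 18% of all genes, and in wild type on 15% SY at 25°C 9 of 24 passed, against 19% of all genes. After Benjamini-Hochberg adjustment over all genes, 3 members at 18°C (GstD1, GstZ2 and GstE8), 1 on 5% SY (GstZ2), 0 in Clk-Jrk and 1 in wild type on 15% SY at 25°C (GstZ2) had an adjusted p below 0.05. Of all genes, 4.9% did so at 18°C, 0.406% on 5% SY, 0% in Clk-Jrk and 0.434% in wild type on 15% SY at 25°C.

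GstZ2 had the smallest rhythm p of the members in both wild-type groups at 25°C, with its peak around lights on. At 25°C on 15% SY its mean was highest at ZT24 (43.8 TPM) and lowest at ZT16 (14.7 TPM). Its amplitude was 13.1 TPM (SE 1.57) around a mean of 27.1 TPM, with the peak at ZT0.7 (SE 0.5, harmonic regression p = 2.2e-07). On 5% SY the amplitude was 13.8 TPM (SE 2.09) and the peak ZT0.7 (p = 7.5e-06). At 18°C the amplitude was 7.12 TPM (SE 1.22), 32.3% of the mean, and the peak was again near lights on, at ZT0.8 (SE 0.7, p = 4.0e-05).

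In Clk-Jrk no rhythm of GstZ2 was detected (amplitude 2.58 TPM, SE 3.07, p = 0.71), and its levels stayed above those of wild type through the day. The gap was widest at ZT14, with means of 65.5 TPM in Clk-Jrk and 16.1 TPM in wild type, and narrowest at ZT22, with 51.4 TPM in Clk-Jrk and 41.9 TPM in wild type. The difference in rhythm between Clk-Jrk and wild type had an unadjusted limma p of 4.5e-04 and an adjusted p of 0.14, and so did not pass in the 12 against 12 libraries. It passed with all 24 wild-type libraries (limma adjusted p = 0.011). Only 0.0564% of all genes had an adjusted p below 0.05 in the matched libraries and 9.15% an unadjusted p below 0.05. No member was called, and 4 of 24 had an unadjusted p below 0.05 (GstZ2, GstT4, GstE8 and GstD1). In simulated data of this size the test recovered 0% of planted rhythm differences, so the lack of calls does not show equal rhythms.

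Hpd and hgo peaked near GstZ2 in wild type on 15% SY at 25°C, at ZT0.9 (SE 1.1, p = 0.010) and ZT1.2 (SE 1.4, p = 0.043), with relative amplitudes of 25.4% and 18.0%, against 48.3% for GstZ2. After Benjamini-Hochberg adjustment over all genes neither was below 0.05 there (harmonic regression adjusted p = 0.36 for Hpd and 0.48 for hgo). On 5% SY neither passed (p = 0.38 for Hpd and 0.26 for hgo). At 18°C hgo peaked at ZT4.3 (SE 0.9, p = 0.0012), and Hpd did not pass (p = 0.45).

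GstT4 had the opposite phase, with its peak near lights off. The peak lay at ZT11.5 (SE 1.2) at 18°C, ZT12.6 (SE 1.3) on 5% SY and ZT12.4 (SE 1.2) in wild type on 15% SY at 25°C, and the amplitudes were 45.7, 59.9 and 47.4 TPM (p = 0.019, 0.026 and 0.015). None of these held in every setting. At 18°C GstT4 failed after scaling and without replicate 2 (harmonic regression p = 0.51), and on 5% SY without replicate 2 (p = 0.11). On 15% SY at 25°C it failed without replicate 1 (p = 0.30) and without the libraries high in midgut markers. In Clk-Jrk its amplitude was 17.7 TPM (SE 5.26) with a peak at ZT7.1 (p = 0.026), but this did not pass without replicate 1 (p = 0.31), with a light-dark step (p = 0.58) or after scaling (p = 0.36). The difference in rhythm between Clk-Jrk and wild type did not pass (limma adjusted p = 0.48).

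Mgstl peaked at ZT12.4 on 5% SY (SE 1.2, p = 0.013) and at ZT11.6 on 15% SY (SE 1.2, p = 0.016) at 25°C, and at ZT5.4 at 18°C (SE 1.3, p = 0.026). At 18°C the rhythm of Mgstl failed with a light-dark step (harmonic regression p = 0.46) and without replicate 2 (p = 0.18). On 5% SY it failed without replicate 2 (p = 0.15). The difference in its rhythm between 18°C and 25°C had an unadjusted limma p of 0.012 and did not pass after adjustment (0.14). In Clk-Jrk it had no detectable rhythm (p = 0.53).

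The Omega genes had weaker rhythms. GstO3 had 90.0 to 152 TPM at 18°C, 63.4 to 142 TPM on 5% SY, 88.3 to 171 TPM in Clk-Jrk and 60.0 to 145 TPM in wild type on 15% SY at 25°C. It peaked at ZT14.5 on 5% SY (p = 0.066) and at ZT4.5 in Clk-Jrk (p = 0.031), and did not pass in the other 2 groups. GstO2 peaked at ZT8.8 on 5% SY (p = 0.049) and ZT3.6 in Clk-Jrk (p = 0.094). In Clk-Jrk both genes failed with either replicate left out, GstO3 also with a light-dark step and GstO2 also with a replicate block. On 5% SY both failed without replicate 2 and without the libraries high in midgut markers. GstO2 there also failed without replicate 1, and GstO3 after scaling. GstS1 passed at 18°C alone, with a peak at ZT9.1 and an amplitude of 5.66 TPM (SE 1.71, p = 0.012), and failed there without replicate 2.

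**Figure D4:**
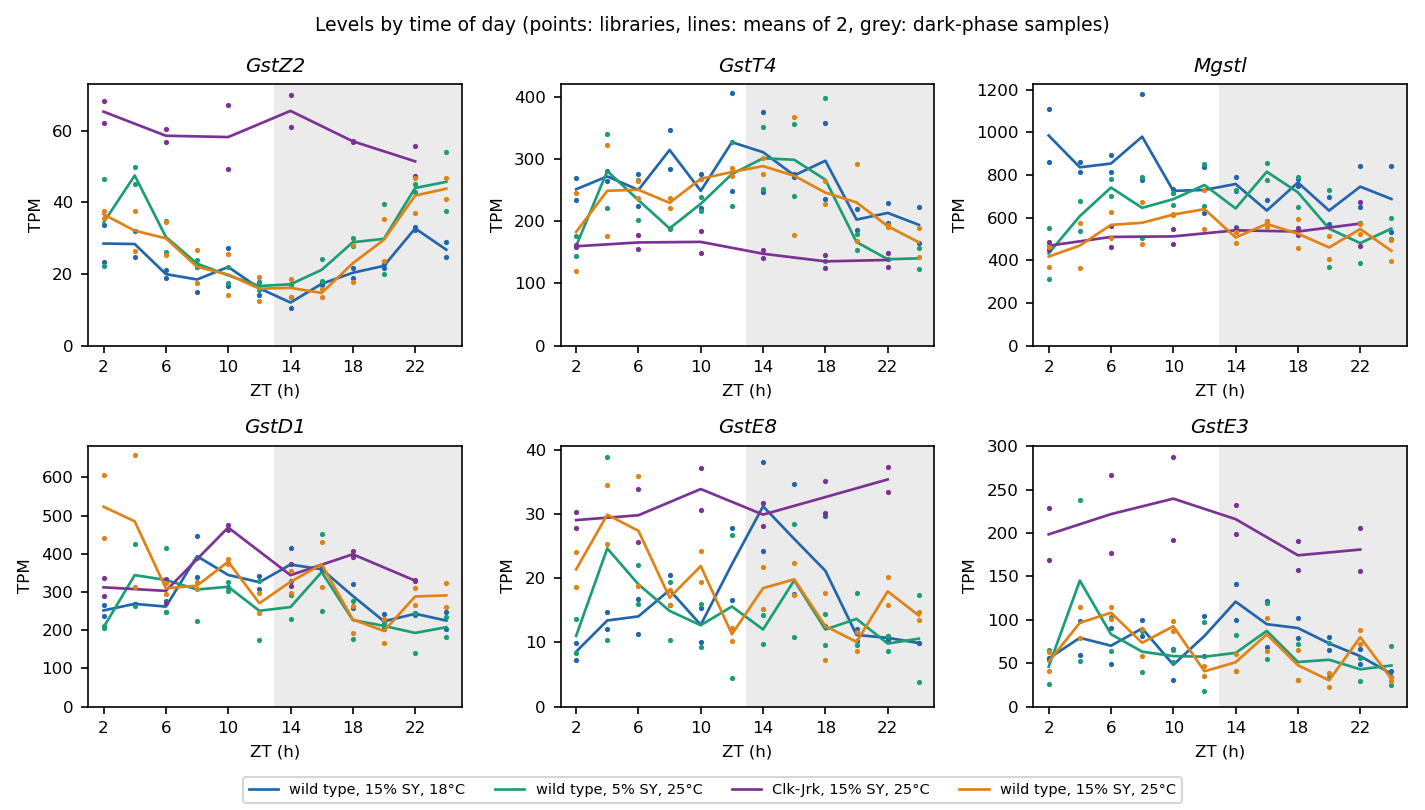
Levels of 6 members by zeitgeber time (x axis, hours) in TPM on y axes that start at 0, with points for libraries and lines for the means of 2, in the 4 groups. GstZ2 peaks near lights on in the wild-type groups and lies above them in Clk-Jrk, whereas GstE8 peaks at ZT13.8 at 18°C and ZT5.6 at 25°C on 15% SY.

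GstE8 was the only member whose rhythm differed between 18°C and 25°C after adjustment (limma adjusted p = 0.019), against 1.05% of all genes tested. At 18°C its mean was highest at ZT14 (31.2 TPM) and lowest at ZT2 (8.55 TPM). At 25°C it was highest at ZT4 (29.9 TPM) and lowest at ZT20 (10.1 TPM). The fitted peaks were ZT13.8 (SE 0.8) at 18°C and ZT5.6 (SE 1.2) at 25°C. Without the 2 libraries at ZT2 and ZT4 that stood apart, the adjusted p was 0.080, and with each replicate left out it was 0.63 without replicate 1 and 0.16 without replicate 2.

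Several other members had later fitted peaks at 18°C, none of them called for a difference in rhythm. GstE3 peaked at ZT13.8 at 18°C (SE 1.3, p = 0.033) and ZT7.1 at 25°C (SE 1.4, p = 0.045). GstE7 peaked at ZT15.1 at 18°C (SE 1.3, p = 0.032) and ZT7.4 at 25°C (SE 1.3, p = 0.026). At 25°C the rhythm of GstE3 held in 4 of 9 alternative settings, and that of GstE7 failed with either replicate left out. GstD1 peaked at ZT11.7 at 18°C (SE 0.6, amplitude 70.6 TPM, p = 3.4e-05) and at ZT5.0 at 25°C (SE 1.6, amplitude 73.2 TPM, p = 0.074). Without the 2 libraries at ZT2 and ZT4, where GstD1 reached 606 and 657 TPM in replicate 1, its rhythm at 25°C did not pass. Over all 24 members, 8 had an unadjusted p below 0.05 for the temperature difference in rhythm, beside 23.9% of all genes. Later peaks at 18°C were not shared by all members. The fitted peak of Mgstl was earlier at 18°C (ZT5.4, against ZT11.6 at 25°C), although its 18°C rhythm failed with a light-dark step and without replicate 2. The fitted peaks of GstT4 (ZT11.5 and ZT12.4) and GstZ2 (ZT0.8 and ZT0.7) were similar at 18°C and 25°C. The clock gene tim had an earlier peak at 18°C, at ZT12.9, against ZT17.4 at 25°C.

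No member was called for a difference in rhythm between 5% SY and 15% SY, in a test that recovered 31% of planted differences in simulated data. No gene of the 7000 had an adjusted p below 0.05 in limma, and 1.41% of all genes, but no member, had an unadjusted p below 0.05.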

How the data were processed

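Per the authors' methods, single-end reads of polyadenylated RNA (Illumina TruSeq) were checked with FastQC, trimmed with Atropos, aligned with STAR 2.7.10a and quantified with RSEM 1.3.1 against Ensembl release 107 of BDGP6.32. The table deposited by the authors gives RSEM's TPM per gene. TPM has the same total in every library, so depth and counting error are unknown, and a rise of abundant genes lowers the others. Sampling times were taken from the sample titles.

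The members, lists and tests were chosen with earlier results of these data known. Differences were fitted with limma 3.58.1 (R 4.3.3, trend) on log2(TPM + 1), with group, cosine and sine of a 24 hour period and their interaction, for genes with a median TPM above 5 in either group. The interaction was tested by a moderated F-test. Benjamini-Hochberg adjustment ran over all genes kept, with a threshold of 0.05. Fold changes are on the log2(TPM + 1) scale, which understates low genes. Rhythms within a group were tested by harmonic regression of TPM (F-test, p below 0.1, median above 5 in the group). Scripts were tested on simulated data. There the test of a difference in rhythm recovered 30.5% of planted differences by temperature, 31% by diet and 0% by genotype. A difference in rhythm that was not called can therefore not be read as absent.

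The members described in full were those the study lists as cyclers, the most abundant of each class, up to 5 rising and 5 falling most in each comparison, those with an adjusted difference in rhythm, and up to 4 with the smallest rhythm p in each group. Genes outside the set came from the lists of glutathione supply, regulators, tyrosine breakdown, other genes of the fold, clock genes and cell type markers. Alternatives changed the pseudocount to 0.1, the scaling, the filter, the trend, the time terms and the threshold, added a replicate block or a light-dark step, or left out a replicate. Leaving out the 2 libraries that stood apart, leaving out those with midgut markers above 500 TPM, and fitting the light or dark phase alone were chosen after seeing the data. Promoter and protein sequences were not used here.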

Additional observations from a re-analysis of the deposited data

Results flagged for a closer look

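The rhythm of GstE8 differed between 18°C and 25°C by the interaction test in limma (adjusted p = 0.0189), with fitted peaks at ZT13.8 at 18°C and ZT5.6 at 25°C. Of 12 alternative settings the call held in 6. It was lost after scaling by the median ratio (adjusted p = 0.068), with a light-dark step (0.14), without the 2 libraries that stood apart (0.080), without libraries high in midgut markers (0.090) and with each replicate left out.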

How the results depend on the processing

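Of 652 recomputed values of single members that had been called, 149 no longer passed their threshold. Among them were 375 differences, none of which changed sign. Of 164 recomputed counts of members, 121 stayed within 1.5 times the main count. For most settings the share of all genes called is not given here, and leaving out libraries weakens the test for every gene. The counts below therefore show how far calls depend on a setting and are no result about the members against other genes.

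The temperature difference (6 higher, 5 lower) gave 3 lower without libraries high in midgut markers, 3 higher in the light phase alone and 1 lower in the dark phase alone. With a replicate left out it gave 4 to 6 higher and 2 to 4 lower. The difference in rhythm by temperature (1 member) gave 0 after scaling, with the light-dark step, without the 2 libraries that stood apart, without libraries high in midgut markers and with either replicate left out (0 to 0).

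The diet difference (1 higher, 3 lower) gave 7 higher after scaling. It gave 0 higher and 0 lower without the 2 libraries that stood apart, and the same in the light phase and in the dark phase alone, and 0 higher without libraries high in midgut markers. With a replicate left out it gave 0 to 2 higher and 0 to 11 lower.

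The genotype difference (8 higher, 3 lower) gave 14 higher after scaling, and 5 higher and 1 lower in the light phase alone. With all 24 wild-type libraries, 1 member (GstZ2) differed in rhythm, against 0 at the shared times.

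Rhythmic members at 18°C (13) numbered 7 without libraries high in midgut markers, 3 at a Benjamini-Hochberg adjusted p below 0.05, and 8 to 11 with a replicate left out. In wild type on 15% SY at 25°C (9) they numbered 5 with the light-dark step, 4 without libraries high in midgut markers, 1 after adjustment, and 4 to 5 with a replicate left out. On 5% SY (7) they numbered 4 without libraries high in midgut markers, 4 at a p below 0.05, 1 after adjustment, and 3 to 5 with a replicate left out. In Clk-Jrk (3) they numbered 0 after adjustment and 0 to 2 with a replicate left out.

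Replicate numbers are shared across groups, and nothing else in the labels pairs the libraries. Deviations of same-numbered libraries correlated above 0.1 at 10 of 12 time points by temperature, 11 of 12 by diet and 1 of 6 by genotype. The mean correlations were 0.28 by temperature, 0.27 by diet and -0.17 by genotype. Libraries of the same replicate number thus shared part of their spread by temperature and by diet, which the main tests did not model. With the replicate block the temperature difference kept 6 higher and 5 lower and had 2 members with a difference in rhythm, the diet difference had 2 higher and 6 lower, and the genotype difference 8 higher and 3 lower. Without read counts, low members cannot be read below their spread.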
